A study of Mus musculus with 8 samples.

Results

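The genes described here encode antibodies: the variable (V) segments of the immunoglobulin heavy chain (Ighv), kappa light chain (Igkv) and lambda light chain (Iglv), the constant regions Ighm (mu heavy chain, of IgM) and Igkc (kappa light chain), and Jchain, the joining chain that links IgM and IgA into polymers. They were chosen by symbol. Every gene row of the deposited count table with a symbol beginning Ighv, Igkv or Iglv was taken, together with Ighm, Igkc and Jchain. This gave 92 of 37991 gene rows, made up of 27 Ighv, 59 Igkv and 3 Iglv rows and the 3 other genes. The name table holds 351 symbols that fit the rule, so the 92 rows are a part of the germline V genes, and rows for the rest were not analysed here. Of the 89 V rows, 79 are annotated as V genes, 8 as V pseudogenes and 2 as IG_LV genes in GENCODE M21, and 1 of the pseudogenes, Igkv11-106, is among the rows with most counts.

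RNA sequencing was applied to Flt3- LSK cells, bone marrow cells enriched for haematopoietic stem cells and their early progeny, of C57BL/6J mice. The Mut samples are described in the labels as Runx1 deficient and the WT samples as normal, carrying Runx1f/f (floxed alleles of the gene for the transcription factor Runx1). The sources used here do not give the deleter, the age of the mice or whether replicates were separate animals, and the spread behind each p-value may therefore be a technical one. For each sample 24000 cells were sorted, synthetic ERCC RNA was added, and polyA-selected (mRNA) and total RNA libraries were made, giving 2 Mut-labelled and 2 WT libraries of each kind, 8 in all.

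Antibody genes are assembled in developing B cells, where V(D)J recombination joins a V segment to D and J segments in the heavy chain locus and to a J segment in the light chain loci. Each B cell clone therefore uses its own V segments, and plasma cells, the antibody-secreting end stage that lives in bone marrow, hold very large amounts of the resulting mRNA. Unrearranged loci can also be transcribed, giving germline transcripts of V and constant genes. Switch recombination later replaces the mu constant region of the heavy chain with that of another class, such as IgG.

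Runx1 itself had a higher gene count under the Mut label. The level of Runx1 in mRNA libraries was 749 and 941 CPM (counts scaled to an equal library total, after TMM scaling) under the Mut label. It was 200 and 207 CPM under the WT label (log2 fold change 2.05, edgeR adjusted p = 0.00753). Counts per gene do not show which part of the gene the reads came from, and whether the labels are right was not tested. Every direction given here is therefore one between labels. The mRNA libraries held 35096252 to 37924699 gene counts and the total RNA libraries 967694 to 1218437, in which ribosomal RNA took 93.3 to 94.5% of all counts. The markers of the sorted fraction were present, with Kit (the stem cell factor receptor) at 953 and 1099 CPM in Mut-labelled and 890 and 883 CPM in WT mRNA libraries. Of 8 listed genes of this fraction, 1 was called higher, against 1.75% of all genes, and 1 lower, against 1.89%. Cd48 was higher, at 181 and 179 CPM in Mut-labelled and 47.6 and 42.6 CPM in WT libraries (edgeR adjusted p = 0.00451). Procr was lower, at 4.06 and 6.89 CPM in Mut-labelled and 21.6 and 26.3 CPM in WT libraries (edgeR adjusted p = 0.0309). Flt3, absent from the surface of cells sorted as Flt3-, still gave 57.3 and 87.5 CPM in Mut-labelled and 117 and 155 CPM in WT libraries (log2 fold change -0.91, edgeR adjusted p = 0.133). One library stood apart from the other 3 of its kind in immunoglobulin counts: WT replicate 2 gave 1.22% of its mRNA gene counts to the 92 rows, against 0.0498 and 0.289% in Mut-labelled replicates 1 and 2 and 0.133% in WT replicate 1. The main counts and levels that rest on it are also given without it.

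Sequences of 3 pairs of related V rows are shown because the rows of a pair differed in how they moved between libraries. Each is the 3′ part of the germline V segment (from base 58 of the Ighv, 59 of the Igkv and 52 of the Iglv segments, on chromosomes 12, 6 and 16), written 5′ to 3′, from the GENCODE M21 transcripts (GRCm38, minus strand), and capitals mark bases that differ from, or have no partner in, the other row of the pair. The heavy chain pair Ighv6-6 (called lower in Mut-labelled libraries) and Ighv6-3 (not called, with most counts of any V row in Mut-labelled replicate 1) was 91.0% identical over the whole V segment, and differed at 21 of the 299 aligned bases shown.
Ighv6-6: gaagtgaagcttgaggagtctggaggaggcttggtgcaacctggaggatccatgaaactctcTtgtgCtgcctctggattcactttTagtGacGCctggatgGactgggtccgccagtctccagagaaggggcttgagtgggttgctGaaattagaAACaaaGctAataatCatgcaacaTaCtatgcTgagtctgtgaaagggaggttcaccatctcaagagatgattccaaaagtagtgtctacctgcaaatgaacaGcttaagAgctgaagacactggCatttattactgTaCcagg
Ighv6-3: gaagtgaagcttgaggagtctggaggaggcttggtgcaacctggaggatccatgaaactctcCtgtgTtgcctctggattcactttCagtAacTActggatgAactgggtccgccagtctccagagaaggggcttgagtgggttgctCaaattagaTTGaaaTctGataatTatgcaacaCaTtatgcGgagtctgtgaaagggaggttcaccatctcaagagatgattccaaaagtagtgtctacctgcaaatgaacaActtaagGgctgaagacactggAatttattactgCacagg

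The kappa pair Igkv4-90 (0 counts in the Mut-labelled mRNA libraries) and Igkv4-91 (a leading V row of Mut-labelled replicate 1, with 0 counts in WT replicate 1) was 86.6% identical over the whole segment, and differed at 42 of the 294 aligned bases shown, with 6 further bases in Igkv4-91 alone.
Igkv4-90: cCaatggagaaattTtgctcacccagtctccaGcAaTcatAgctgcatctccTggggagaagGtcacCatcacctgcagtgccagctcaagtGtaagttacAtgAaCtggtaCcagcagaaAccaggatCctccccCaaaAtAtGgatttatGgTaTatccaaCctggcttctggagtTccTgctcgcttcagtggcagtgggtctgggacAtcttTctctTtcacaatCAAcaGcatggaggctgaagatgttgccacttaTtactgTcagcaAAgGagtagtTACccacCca
Igkv4-91: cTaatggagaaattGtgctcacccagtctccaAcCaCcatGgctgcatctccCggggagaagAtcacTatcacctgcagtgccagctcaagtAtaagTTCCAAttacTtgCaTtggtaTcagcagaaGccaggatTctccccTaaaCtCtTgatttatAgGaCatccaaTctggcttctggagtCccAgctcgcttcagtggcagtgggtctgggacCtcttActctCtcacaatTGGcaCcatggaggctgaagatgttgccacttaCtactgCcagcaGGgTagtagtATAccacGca

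The lambda pair Iglv1 and Iglv2, the most alike, was 96.9% identical over the whole segment and differed at 8 of the 300 bases shown. Iglv1 was the V row with most counts in Mut-labelled replicate 2, whereas Iglv2 was that of WT replicate 1.
Iglv1: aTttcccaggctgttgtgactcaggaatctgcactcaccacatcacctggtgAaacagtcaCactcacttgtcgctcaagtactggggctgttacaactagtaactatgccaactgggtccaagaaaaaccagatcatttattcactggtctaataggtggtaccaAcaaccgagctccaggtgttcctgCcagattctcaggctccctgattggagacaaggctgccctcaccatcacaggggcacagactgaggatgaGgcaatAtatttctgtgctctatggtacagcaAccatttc
Iglv2: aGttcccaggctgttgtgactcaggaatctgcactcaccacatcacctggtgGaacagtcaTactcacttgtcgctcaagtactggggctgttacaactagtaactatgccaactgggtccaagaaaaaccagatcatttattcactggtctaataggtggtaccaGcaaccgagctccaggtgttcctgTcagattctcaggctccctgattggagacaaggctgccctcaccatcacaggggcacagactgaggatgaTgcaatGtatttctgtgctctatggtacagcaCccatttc

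Such likeness bears on every V value. The V sequences were 222 to 394 bases long with a median of 352, and 85 of the 89 V rows had another V gene of the same family in the annotation. Their nearest relative was a median of 92.4% identical, 29 were at or over 95%, and for 53 the nearest relative was not among the rows analysed here. The sources used here do not say how multiply mapped reads were counted, and reads of a rearranged, mutated V segment may fall on a relative or be lost, so the value of a single V row is uncertain. The octamer ATTTGCAT, the motif that binds octamer factors in immunoglobulin promoters, was searched on both strands in the RefSeq promoter windows (GRCm38), of which 570 of 32851 (1.74%) held it. The same windows held TATAAA in 4473 cases (13.6%). Among the 92 genes a window was given for Jchain alone, and it held neither motif.

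Ighm was lower in the Mut-labelled libraries of both kinds. Ighm (ENSMUSG00000076617), the constant region of the first antibody class a B cell makes, had a level of 32.9 and 17.9 CPM in Mut-labelled mRNA libraries, against 295 and 182 CPM in WT libraries. Both WT libraries lay far above both Mut-labelled ones. The mean was 25.4 ± 10.6 CPM in Mut-labelled and 238 ± 80.5 CPM in WT libraries (SD, n = 2 each), a level 9.39-fold lower in the Mut-labelled group (log2 fold change -3.23, SE 0.38, edgeR adjusted p = 0.0152). An exact two-sided permutation test of the log2 levels gave p = 0.33, the smallest that 2 against 2 libraries allow. In bulk RNA a smaller number of cells of a type and less RNA per cell cannot be told apart, here or for any gene below. In total RNA libraries Ighm had 22 and 16 counts in Mut-labelled libraries, against 161 and 100 counts in WT libraries (log2 fold change -2.82, SE 0.30, edgeR adjusted p = 6.23e-06). Leaving out each library in turn kept the mRNA log2 fold change between -3.74 and -2.84 and the total RNA one between -3.24 and -2.44, and Ighm was called each time. Under ERCC scaling the mRNA call was lost (log2 fold change -3.66, edgeR adjusted p = 0.114).

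Igkc and Jchain were not called. Igkc (ENSMUSG00000076609), the constant region shared by all kappa light chains, measured 268 and 1390 CPM in Mut-labelled mRNA libraries, against 591 and 6731 CPM in WT libraries. Jchain (ENSMUSG00000067149), which is expressed with secreted polymeric antibody, measured 86.7 and 651 CPM in Mut-labelled libraries, against 205 and 2605 CPM in WT libraries. For both genes the 2 groups overlapped, since Mut-labelled replicate 2 exceeded WT replicate 1, and neither was called (Igkc log2 fold change -2.14, SE 1.21, edgeR adjusted p = 0.51; Jchain -1.93, SE 1.31, edgeR adjusted p = 0.61). Without WT replicate 2 their mRNA log2 fold changes turned to 0.50 for Igkc and 0.86 for Jchain, and without WT replicate 1 Igkc was called lower (log2 fold change -3.02, edgeR adjusted p = 0.0334). Total RNA libraries gave the same order, with 204 and 1006 CPM of Igkc in Mut-labelled and 319 and 4399 CPM in WT libraries, and neither gene was called there (edgeR adjusted p = 0.143 for Igkc and 0.232 for Jchain). Without WT replicate 2 the total RNA log2 fold changes were 0.94 for Igkc and 1.15 for Jchain, neither called, and with any other library left out both genes were called lower.

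The distance between libraries of one group was larger for Igkc and Jchain than the distance between the groups, and it ran the other way for Ighm. Igkc was 5.19 times as high in Mut-labelled replicate 2 as in Mut-labelled replicate 1, and 11.4 times as high in WT replicate 2 as in WT replicate 1. The same ratios were 0.543 and 0.615 for Ighm. The number of Jchain counts per Igkc count, not scaled by length, moved little, at 0.324 and 0.468 in Mut-labelled and 0.347 and 0.387 in WT mRNA libraries. The number of Ighm counts per Igkc count ranged widely, at 0.123 and 0.0129 in Mut-labelled and 0.50 and 0.0270 in WT libraries.

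**Figure D1:**
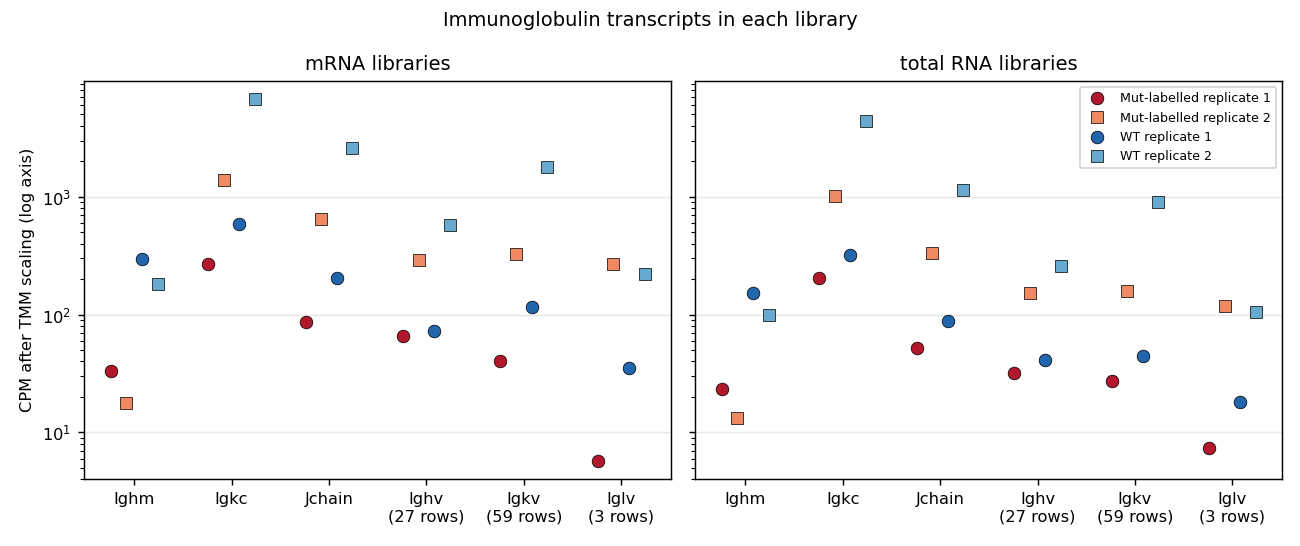
Level (CPM after TMM scaling, log axis) of Ighm, Igkc, Jchain and the summed Ighv, Igkv and Iglv rows in each mRNA library (left) and total RNA library (right), with 1 point per library and no error bars. The 2 groups are apart for Ighm alone, whereas for Igkc, Jchain, Ighv and Igkv WT replicate 2 is highest and Mut-labelled replicate 2 second.

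Summed over the 92 rows, the level was 499 and 2950 CPM in Mut-labelled mRNA libraries, against 1316 and 12103 CPM in WT libraries. The groups overlapped, and the mean log2 difference, Mut-labelled minus WT, was -1.72 (exact two-sided permutation p = 0.667). It was -0.12 without WT replicate 2. In total RNA libraries the sums were 346 and 1777 CPM in Mut-labelled and 665 and 6897 CPM in WT libraries, with a mean log2 difference of -1.45 (exact two-sided permutation p = 0.667) that turned to 0.24 without WT replicate 2. The 27 Ighv rows summed to 65.6 and 292 CPM in Mut-labelled and 72.0 and 578 CPM in WT mRNA libraries. For the 59 Igkv rows the sums were 40.7 and 329 CPM in Mut-labelled and 117 and 1784 CPM in WT libraries. The 3 Iglv rows gave 5.68 and 271 CPM in Mut-labelled and 35.3 and 222 CPM in WT libraries. No V class separated the groups by its sum, and for each class WT replicate 1 lay between the 2 Mut-labelled libraries.

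Single V rows were then tested in the fit over all genes, in which 17128 genes passed the filter on low counts in mRNA libraries. Of the 92 rows, 56 passed it, and 11 of these (19.6%) were lower in Mut-labelled libraries at an edgeR adjusted p under 0.05, against 1.89% of all genes tested. None was higher, against 1.75% of all genes, and DESeq2 called none higher. At an unadjusted edgeR p under 0.05, 21 were lower, against 8.38% of all genes, and 1 was higher, against 7.27%. The fitted log2 fold change was below 0 for 46 of the 56, against 51.4% of all genes. The 11 were Ighm, 4 of 17 Ighv rows, 5 of 33 Igkv rows and 1 of 3 Iglv rows tested. The groups did not overlap, with Mut-labelled libraries lower, for 26 of the 56 (46.4%), against 23.1% of all genes, and with Mut-labelled libraries higher for 1, Ighv5-2, against 21.4% of all genes. The median log2 fold change of the rows tested was -3.37, against -0.01 over all genes, and it was -2.53 for Ighv, -4.39 for Igkv (-4.34 with rows at 0 in a group set at their bound) and -0.82 for Iglv rows. Without WT replicate 2 the fitted log2 fold change was below 0 for 32 of 56 rows, against 48.6% of all genes, with a median of -0.39. In that fit 15 rows were called lower, against 1.95% of all genes, and 2 (Igkv11-106 and Igkv4-91) higher, against 1.94%. These shares, medians and calls describe rows that passed a filter and are no support by themselves. Of the 56, 17 had under 10 counts in both Mut-labelled libraries and passed through the WT libraries, and none had under 10 counts in both WT libraries. Of the 11 rows called with all libraries, all but Ighm, Ighv6-6 and Iglv3 were among the 17.

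The other 36 rows were not tested. Of these, 15 had 0 counts in all 4 mRNA libraries, and 12 rows had 0 counts in all 8 libraries. A further 15 reached 10 counts in WT replicate 2 alone. Igkv2-112 was one such row, with 0 and 1 counts in Mut-labelled and 0 and 666 counts in WT mRNA libraries, and Igkv4-86 had 0 and 3 counts in Mut-labelled and 8 and 1012 counts in WT libraries; both were picked as examples after their values were seen. Of the remaining 6 rows, 1 reached 10 counts in WT replicate 1 and 5 had under 10 counts in every library.

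Of the 4 heavy chain V rows that fell, Ighv6-6 was the one with counts in both Mut-labelled libraries. Ighv6-6 had 3 and 19 counts in Mut-labelled mRNA libraries, against 540 and 2399 counts in WT libraries, a level 127-fold lower (log2 fold change -6.96, SE 1.06, edgeR adjusted p = 0.0309). Its relative Ighv6-3, shown above, had 1565 and 599 counts in Mut-labelled and 396 and 3004 counts in WT libraries, so that the groups overlapped (log2 fold change -0.54, edgeR adjusted p = 0.88). Whether the 2 rows of the pair differed in their change was not tested. Ighv15-2 had 0 counts in both Mut-labelled libraries, against 111 and 277 counts in WT libraries, which is at least 60.6-fold lower with a floor of 3 counts per library (edgeR adjusted p = 0.0206). Ighv1-47 had 0 and 1 counts in Mut-labelled and 175 and 891 counts in WT libraries, which makes the WT level 1001 times the Mut-labelled one, with 179 to 39581 as 95% interval of the counts (edgeR adjusted p = 0.0225). Ighv3-8 had 0 and 3 counts in Mut-labelled and 81 and 496 counts in WT libraries, a ratio of 181 with an interval of 61.5 to 878 (edgeR adjusted p = 0.0485). These rows were at or near 0 in Mut-labelled libraries and present in both WT libraries, and intervals and floors cover counting error only.

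The heavy chain V rows with the highest mean CPM were mostly of another kind, high in single libraries of both groups. Ighv3-6 had 361 and 7298 counts in Mut-labelled and 362 and 4189 counts in WT mRNA libraries (log2 fold change 0.82, edgeR adjusted p = 0.89). Ighv7-1 had 0 and 1116 counts in Mut-labelled and 0 and 935 counts in WT libraries. Both rows were high in replicate 2 of either label and low or at 0 in replicate 1. Ighv7-3 had 173 and 0 counts in Mut-labelled and 102 and 991 counts in WT libraries. Ighv14-4 had 117 and 2 counts in Mut-labelled and 129 and 2693 counts in WT libraries. Both rows were thus higher in replicate 1 than in replicate 2 under the Mut label, and the reverse under the WT label. Ighv14-4 was nevertheless lower in both Mut-labelled libraries (3.34 and 0.055 CPM) than in both WT libraries (3.40 and 70.4 CPM). Of the others of this set, Ighv8-12 and Ighv3-5 were high in replicate 2 of both labels, and Ighv1-18 was lower in both Mut-labelled than in both WT libraries. Ighv8-12 had 3 and 525 counts in Mut-labelled and 260 and 2935 counts in WT libraries, Ighv3-5 had 0 and 567 in Mut-labelled and 107 and 673 in WT libraries, and Ighv1-18 had 0 and 132 in Mut-labelled and 420 and 1149 in WT libraries. None of these 7 was called. Ighv5-2, the row that was higher in both Mut-labelled libraries, had 76 and 144 counts there, against 49 and 38 counts in WT libraries (log2 fold change 1.42, SE 0.47, edgeR adjusted p = 0.213).

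Among kappa V rows 5 fell. Igkv4-90 had 0 counts in each Mut-labelled mRNA library, against 229 and 1184 counts in WT libraries, at least 221-fold lower (edgeR adjusted p = 0.0328). Igkv5-39 had 0 and 1 counts in Mut-labelled and 275 and 2359 counts in WT libraries, a WT level 2474 times the Mut-labelled one (95% interval 444 to 97747, edgeR adjusted p = 0.03). Igkv2-137 had 1 count in each Mut-labelled library, against 215 and 2015 counts in WT libraries, a ratio of 1047 with an interval of 290 to 8652 (edgeR adjusted p = 0.0327). In all 3 rows each WT library held at least 215 counts and each Mut-labelled library at most 1. Igkv4-74 had 0 and 1 counts in Mut-labelled and 78 and 354 counts in WT libraries, a ratio of 406 with an interval of 72.4 to 16062 (edgeR adjusted p = 0.0297). Igkv12-98, the least abundant, had 0 counts in both Mut-labelled libraries and 51 and 65 counts in WT libraries, at least 18.1-fold lower (edgeR adjusted p = 0.0377). In the other 4 rows WT replicate 2 held several times the counts of WT replicate 1.

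Several kappa rows with more counts than these were not called, and their 2 WT libraries differed more. Igkv5-48 had 0 and 3 counts in Mut-labelled and 164 and 6890 counts in WT mRNA libraries (edgeR adjusted p = 0.0816). Igkv17-121 had 1 and 0 counts in Mut-labelled and 245 and 5924 counts in WT libraries (edgeR adjusted p = 0.058). Igkv8-30 had 0 counts in both Mut-labelled libraries, against 169 and 4369 counts in WT libraries, at least 708-fold lower (edgeR adjusted p = 0.0989). For these 3 rows the groups did not overlap. Other leading kappa rows were present in both groups. Igkv15-103 had 127 and 4053 counts in Mut-labelled and 292 and 5456 counts in WT libraries. Igkv4-91 had 470 and 2726 counts in Mut-labelled and 0 and 1758 counts in WT libraries, and the pseudogene row Igkv11-106 had 462 and 1347 counts in Mut-labelled and 15 and 3008 counts in WT libraries. For both of these each Mut-labelled library exceeded WT replicate 1, and the groups overlapped. Igkv4-91 was higher in Mut-labelled replicate 2 (74.5 CPM) than in both WT libraries (0 and 46.0 CPM). Igkv8-21 had 1 and 189 counts in Mut-labelled and 58 and 5774 counts in WT libraries, Igkv6-32 had 2 and 398 in Mut-labelled and 1 and 5302 in WT libraries, and Igkv12-46 had 0 and 114 in Mut-labelled and 459 and 2047 in WT libraries. Igkv8-24, a leading row of WT replicate 1, had 0 and 274 counts in Mut-labelled and 608 and 709 counts in WT libraries. For Igkv12-46 and Igkv8-24 the groups did not overlap either, with Mut-labelled libraries lower, and neither was called (edgeR adjusted p = 0.254 and 0.639).

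**Figure D2:**
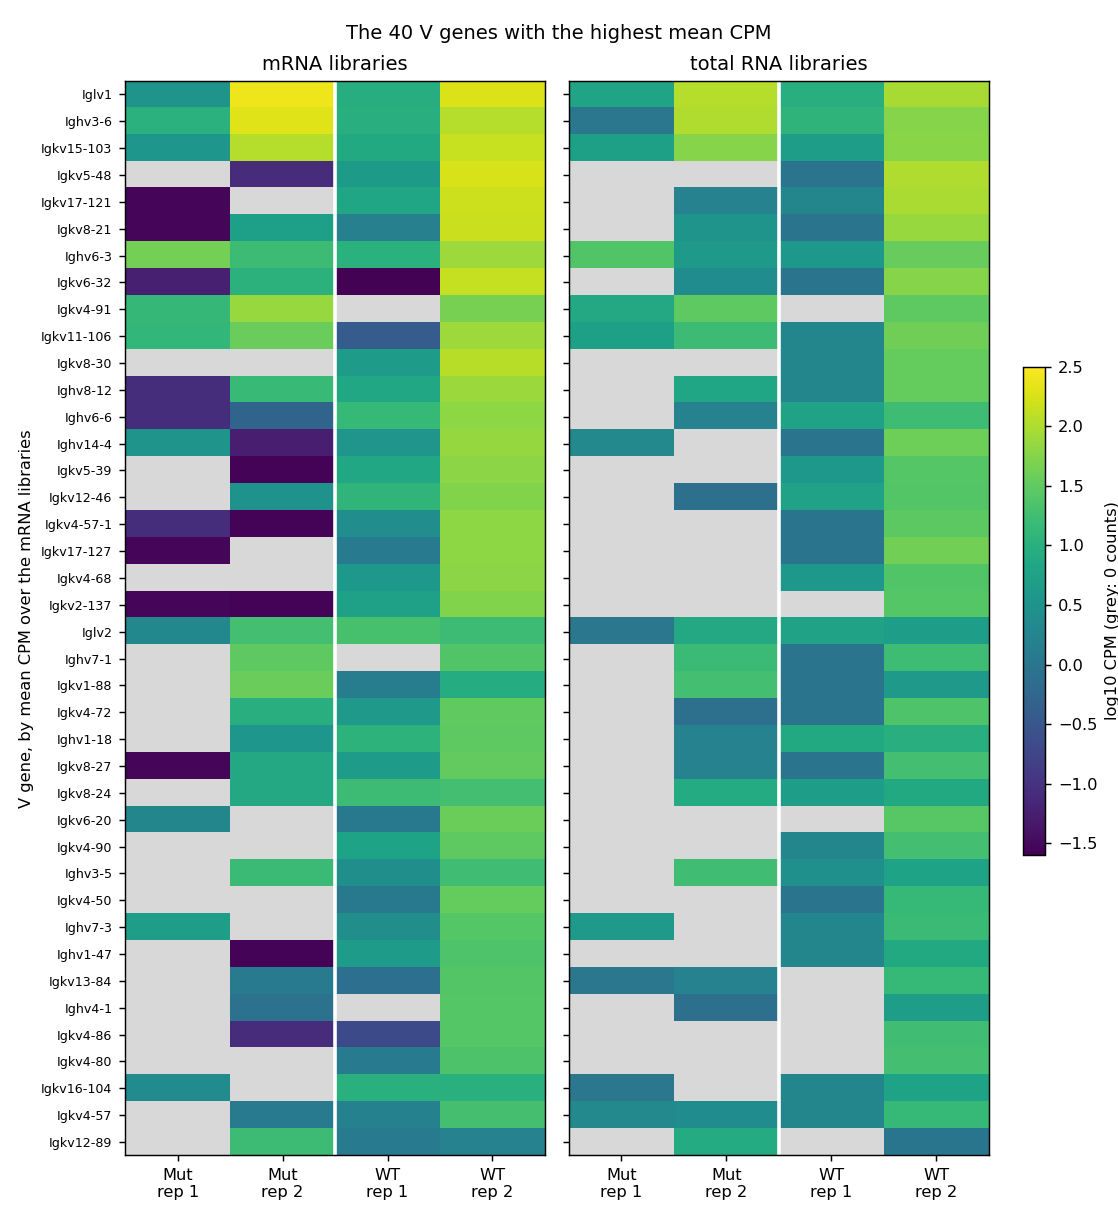
Level (log10 CPM, grey for 0 counts) of the V rows with the highest mean CPM over the mRNA libraries, with rows for V genes and columns for Mut-labelled and WT libraries of each kind. Grey and dark cells gather in the Mut-labelled columns and WT replicate 2 is bright in most rows, and each total RNA column repeats the pattern of the mRNA library of its own name.

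The 3 lambda rows behaved in 3 ways. Iglv3 had 13 and 23 counts in Mut-labelled and 224 and 424 counts in WT mRNA libraries, a level 17.0-fold lower (log2 fold change -4.07, SE 0.50, edgeR adjusted p = 0.0176). Iglv2 had 71 and 688 counts in Mut-labelled and 775 and 631 counts in WT libraries (log2 fold change -0.82, edgeR adjusted p = 0.788). Iglv1 had 115 and 9189 counts in Mut-labelled and 343 and 7441 counts in WT libraries (log2 fold change 0.32, edgeR adjusted p = 0.971). Iglv3 separated the groups, Iglv2 was low in Mut-labelled replicate 1 alone, and Iglv1 was high in replicate 2 of both labels. Lambda rows made up 12.3% (95% Wilson interval 10.8 to 13.9) and 45.1% (44.4 to 45.8) of light chain V counts in Mut-labelled mRNA libraries, against 23.2% (22.1 to 24.3) and 11.1% (10.9 to 11.3) in WT libraries. Mut-labelled replicate 2 had the highest lambda share, and 9189 of its 9900 lambda counts fell on Iglv1. The Wilson intervals here and below treat each count as independent. They cover counting error only, not the spread between cells or samples.

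**Figure D3:**
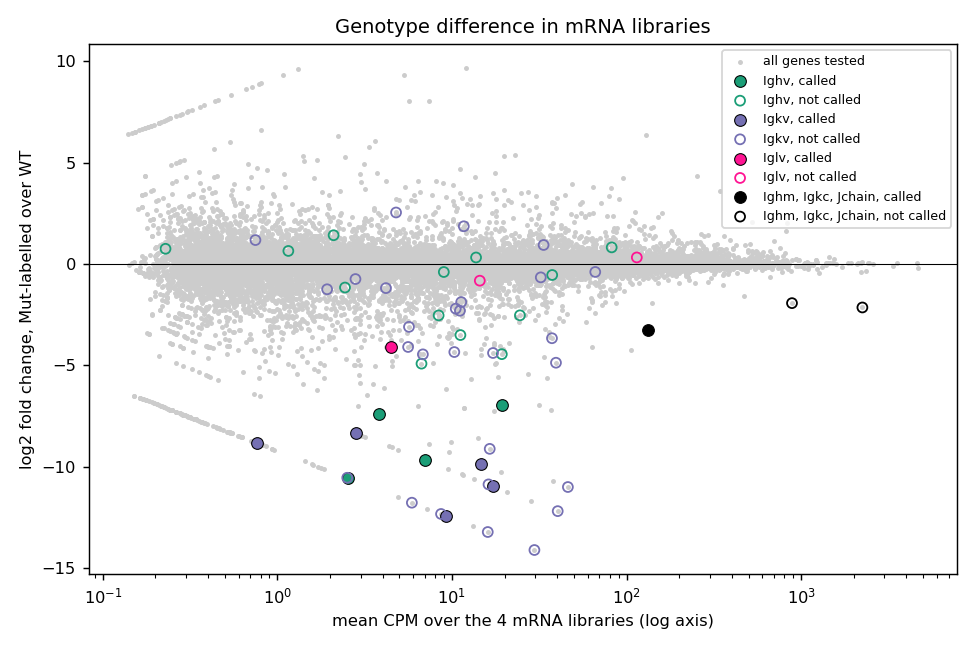
Log2 fold change, Mut-labelled over WT, against mean CPM over the 4 mRNA libraries (log axis), with 1 point per gene tested, filled where an immunoglobulin row was called and open where it was not. The 11 called rows all lie below 0 and none lies above, with Ighm at -3.23 and Igkc and Jchain open at -2.14 and -1.93.

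In total RNA libraries the V rows had too few counts for most tests. Of the 92 rows 10 passed the filter, and 1 of the 10, Ighm, was called lower, against 1.68% of 10546 genes. None was called higher, against 2.55% of genes, and DESeq2 called none higher. At an unadjusted edgeR p under 0.05, 3 were lower, against 7.13% of genes, and none was higher, against 7.65%. The fitted log2 fold change was below 0 for 6 of the 10, against 50.2% of genes. The groups did not overlap, for 1 of the 10 with Mut-labelled libraries lower, against 21.4% of genes, and for none with Mut-labelled libraries higher, against 22.5%. The 7 V rows tested were those high in Mut-labelled as well as WT libraries. Ighv3-6 had 1 and 125 counts in Mut-labelled and 12 and 57 counts in WT libraries, and Ighv6-3 had 23 and 5 counts in Mut-labelled and 4 and 36 counts in WT libraries. Rows called in mRNA libraries had the same direction in the few counts here. Ighv6-6 had 0 and 2 counts in Mut-labelled and 6 and 17 counts in WT total RNA libraries, Igkv4-90 had 0 counts in both Mut-labelled and 2 and 19 counts in WT libraries, and Igkv5-39 had 0 counts in both Mut-labelled and 4 and 27 counts in WT libraries. With no filter on low counts 25 of 67 rows tested were called lower in total RNA libraries, against 1.9% of all genes, and none higher, against 1.83%. The 2 groups overlapped for 11 of the 25, Igkc and Jchain among them, and the SE of the Igkc log2 fold change was 0.143 there, against 0.685 with the filter. Without WT replicate 2, 1 of 12 rows tested, Ighm, was called lower, against 2.36% of genes, and 4 (Ighv3-6, Iglv1, Igkv15-103 and Igkv4-91) were called higher, against 2.99%. The fitted log2 fold change was below 0 for 1 of these 12, against 49.3% of genes.

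The spread of counts over V rows differed between the labels in all 4 mRNA libraries. At least 10 counts were found for 15 and 31 V rows in Mut-labelled mRNA libraries, against 46 and 69 V rows in WT libraries. The effective number of V rows (the inverse Simpson index of V counts, which equals the number of rows when all hold equal shares) was 4.91 and 6.30 in Mut-labelled libraries, against 24.8 and 27.2 in WT libraries. The groups did not overlap. Without the V row with most counts in each library it was 8.14 and 6.51 in Mut-labelled and 25.8 and 27.5 in WT libraries, so that the value of Mut-labelled replicate 1 rested in part on Ighv6-3. The number of V counts was 3921 and 32621 in Mut-labelled and 8517 and 98868 in WT libraries. Within each label the library with more V counts had the higher effective number, while Mut-labelled replicate 2 held more V counts than WT replicate 1 and had a lower effective number. The part of the number of V counts was not tested, and an exact two-sided permutation test of 2 against 2 libraries cannot go below p = 0.33. Dividing counts by the length of each V sequence gave 4.95 and 6.27 in Mut-labelled and 24.8 and 27.01 in WT libraries.

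The 2 leading V rows together held 50% or more of the V counts in each Mut-labelled mRNA library, whereas 9 and 10 rows were needed for this in WT libraries. The 5 rows with most counts held 77.3 and 75.5% of V counts in Mut-labelled libraries, against 32.9 and 31.8% in WT libraries. The leading rows were not the same in the 2 Mut-labelled libraries. In Mut-labelled replicate 1 they were Ighv6-3 with 39.9% of V counts (95% Wilson interval 38.4 to 41.5), Igkv4-91 with 11.99% and Igkv11-106 with 11.8%. In Mut-labelled replicate 2 they were Iglv1 with 28.2% (27.7 to 28.7), Ighv3-6 with 22.4% and Igkv15-103 with 12.4%. In WT replicate 1 Iglv2 led with 9.10% (8.51 to 9.73), before Igkv8-24 with 7.14% and Ighv6-6 with 6.34%, and in WT replicate 2 Iglv1 led with 7.53% (7.36 to 7.69), before Igkv5-48 with 6.97% and Igkv17-121 with 5.99%. A heavy and a light chain row thus led each Mut-labelled library, and no row held over 9.10% of V counts in a WT mRNA library.

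Total RNA libraries gave like values from far fewer counts. The effective number was 5.60 and 6.42 in Mut-labelled total RNA libraries, against 20.4 and 25.9 in WT libraries, from 63 and 520 V counts in Mut-labelled and 109 and 1278 V counts in WT libraries. Without the V row with most counts that of Mut-labelled replicate 1 was 8.89. Ighv6-3 again led Mut-labelled replicate 1 with 36.5% (25.7 to 48.9) and Iglv1 led Mut-labelled replicate 2 with 26.0% (22.4 to 29.9), against 11.01% (6.41 to 18.3) for Ighv3-6 in WT replicate 1 and 8.22% (6.83 to 9.85) for Igkv5-48 in WT replicate 2.

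**Figure D4:**
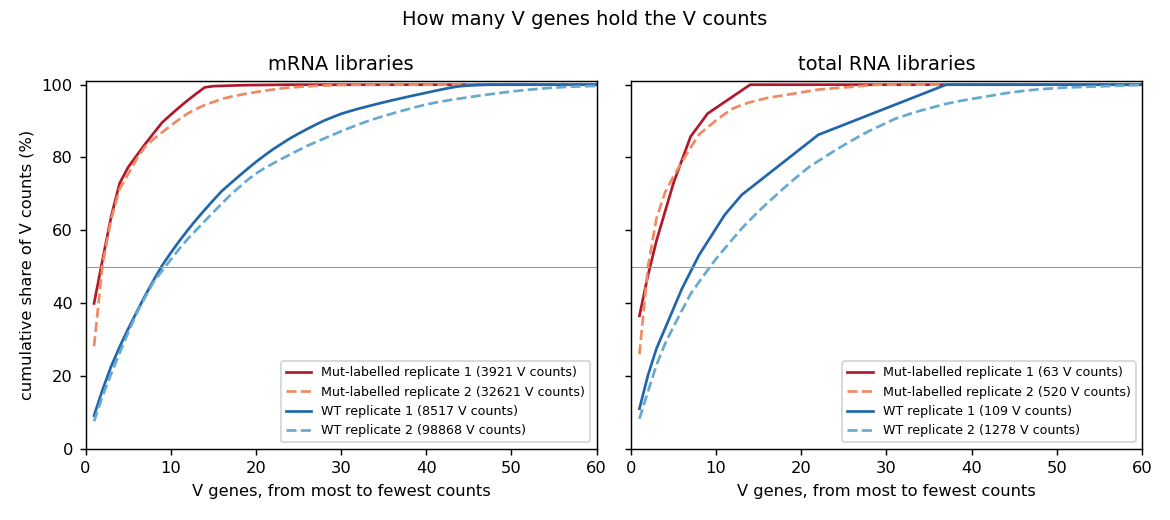
Cumulative share of V counts (%) against the number of V rows taken from most to fewest counts, with 1 line per library, for mRNA (left) and total RNA libraries (right). In mRNA libraries the Mut-labelled lines pass 50% at 2 rows, with 77.3 and 75.5% at 5 rows, and the WT lines pass 50% at 9 and 10 rows.

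The V rows found in Mut-labelled libraries were a subset of those found in WT libraries at this depth when WT replicate 2 was counted, and not without it. At least 10 counts were found for 36 V rows in a Mut-labelled mRNA library, all 36 of which also had at least 10 counts in a WT library (36 of 69). The other 33 reached 10 counts in WT libraries alone, and none did so in Mut-labelled libraries alone. Conversely, 25 V rows had no count in either Mut-labelled mRNA library while present in a WT library, and none had 0 counts in both WT libraries while present in a Mut-labelled one. In all 4 mRNA libraries 9 V rows reached 10 counts, namely Ighv3-6, Ighv5-2, Ighv6-3, Igkv3-10, Igkv11-106, Igkv15-103, Iglv1, Iglv2 and Iglv3. Against WT replicate 1 alone, 28 of the 36 rows had at least 10 counts there and 8 did not. Of these 8, 7 (Ighv2-6-8, Ighv4-1, Ighv7-1, Ighv7-2, Ighv7-4, Igkv4-91 and Igkv8-16) had 0 counts in WT replicate 1. Of the 46 rows with at least 10 counts in WT replicate 1, 18 stayed under 10 in both Mut-labelled libraries. In that comparison 10 V rows had no count in either Mut-labelled library while present in WT replicate 1, and 10 had none in WT replicate 1 while present in a Mut-labelled library. The high immunoglobulin level of WT replicate 2 moved with these counts: 66 of the 69 rows had a higher CPM in it than in WT replicate 1 and 15 rows reached 10 counts in it alone.

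The profile of V counts matched between the mRNA and total RNA libraries of one sample. The overlap of 2 profiles was taken as the sum, over V rows, of the smaller of the 2 shares. Between the mRNA and the total RNA library of the same name it was 78.6 and 91.4% for Mut-labelled replicates 1 and 2, and 73.5 and 89.6% for WT replicates 1 and 2. Between an mRNA and a total RNA library of different names it ranged from 22.8 to 54.5%. For each of the 4 samples the library of its own name was the nearest of the other kind. Among mRNA libraries the overlap was 32.4% between the 2 Mut-labelled libraries and 54.3% between the 2 WT libraries. Between a Mut-labelled and a WT mRNA library it lay between 25.5 and 34.8%. The 2 Mut-labelled libraries overlapped each other no more than Mut-labelled replicate 2 overlapped WT replicate 2 (34.8%).

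**Figure D5:**
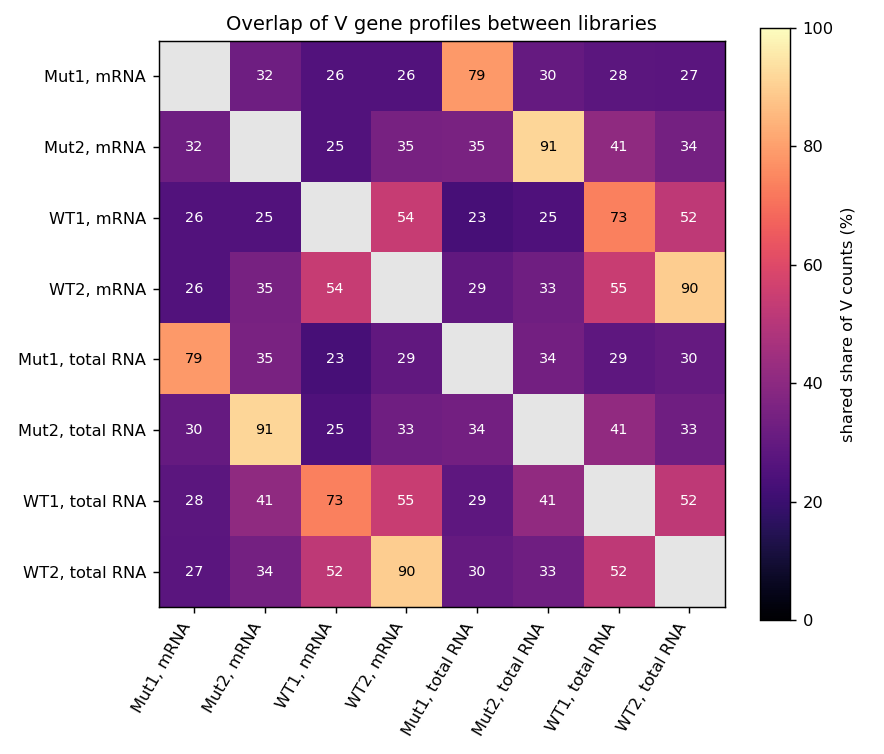
Overlap of V profiles (%, the sum over V rows of the smaller of 2 shares of V counts) for each pair of the 8 libraries, where Mut1 is Mut-labelled replicate 1 and likewise for the others. The same-name mRNA and total RNA pairs stand out at 73.5 to 91.4%, and the 2 WT samples share more (52.1 to 54.5%) than any other pair of different samples.

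Constant regions of switched antibody classes were examined as further genes of the pathway. Of 10 listed constant genes other than Ighm and Igkc, 6 had rows, 5 were tested in mRNA libraries and none was called by edgeR or DESeq2. At an unadjusted edgeR p under 0.05, 2 were lower, against 8.38% of all genes, and none higher, against 7.27%. Ighg2b (IgG2b) had 13 and 493 counts in Mut-labelled and 1279 and 7836 counts in WT mRNA libraries (log2 fold change -4.10, edgeR adjusted p = 0.255). Ighg2c (IgG2c) had 2 and 787 counts in Mut-labelled and 2126 and 3613 counts in WT libraries (log2 fold change -2.80, edgeR adjusted p = 0.50). Ighg1 (IgG1) had 31 and 4 counts in Mut-labelled and 1866 and 56 counts in WT libraries, where it was high in WT replicate 1 alone. Iglc2, a lambda constant region, had 108 and 742 counts in Mut-labelled and 985 and 1733 counts in WT libraries. In these 4 of the 5 genes tested both Mut-labelled libraries were below both WT libraries, against 23.1% of all genes. Ighg3 (IgG3), the fifth, overlapped, with 8 and 14 counts in Mut-labelled and 0 and 51 counts in WT libraries. In total RNA libraries 2 of the 3 listed genes tested were called lower, against 1.68% of all genes. Ighg2b had 0 and 13 counts in Mut-labelled and 25 and 136 counts in WT libraries (log2 fold change -3.70, edgeR adjusted p = 0.00295). Ighg2c had 1 and 10 counts in Mut-labelled and 26 and 61 counts in WT libraries (log2 fold change -3.05, edgeR adjusted p = 0.00184). DESeq2 called neither. The third, Iglc2, overlapped in total RNA, with 2 and 18 counts in Mut-labelled and 11 and 27 counts in WT libraries.

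Some markers of antibody-secreting cells had the library order of Igkc and Jchain, and others did not. Of 18 listed plasma cell genes all were tested in mRNA libraries and none was called by edgeR, with a median log2 fold change of -0.70. At an unadjusted edgeR p under 0.05, 2 were lower, against 8.38% of all genes, and none higher, against 7.27%. DESeq2 called 1 lower. The summed level of the 18 was 744 and 840 CPM in Mut-labelled and 698 and 1184 CPM in WT libraries. The order of Igkc and Jchain (WT replicate 2, Mut-labelled replicate 2, WT replicate 1, Mut-labelled replicate 1, from high to low) was also that of 8 of the 18 (44.4%), against 5.13% of all genes tested. WT replicate 2 was the highest library for 14 of the 18 (77.8%), against 22.3% of all genes. Of 9 tested in total RNA libraries 2 had this order, against 3.92% of genes, and 5 of 9 were highest in WT replicate 2, against 23.3%. Mzb1, a chaperone of antibody assembly and one of the 8, measured 2.60 and 9.82 CPM in Mut-labelled and 5.53 and 36.4 CPM in WT libraries. Irf4, a transcription factor of plasma cells and also one of the 8, measured 2.23 and 8.56 CPM in Mut-labelled and 4.71 and 20.9 CPM in WT libraries. Xbp1, a secretory factor also made by other cells, varied less, at 121 and 140 CPM in Mut-labelled and 108 and 190 CPM in WT libraries. Among the 10 with another order, picked as examples after their values were seen, Sdc1 (CD138), a surface marker of plasma cells, measured 72.2 and 76.4 CPM in Mut-labelled and 44.7 and 77.8 CPM in WT libraries. Cd38, a surface enzyme, measured 7.51 and 4.10 CPM in Mut-labelled and 3.63 and 3.27 CPM in WT libraries, and Fkbp11, a protein-folding enzyme, 4.74 and 3.25 CPM in Mut-labelled and 11.6 and 6.30 CPM in WT libraries. Both Mut-labelled libraries were thus above both WT libraries for Cd38 and below them for Fkbp11. The synthetic ERCC RNA also differed between libraries, with 312754 and 142196 counts in Mut-labelled and 243670 and 118723 counts in WT mRNA libraries. The part of these markers, and of the ERCC difference, in the immunoglobulin results was not tested.

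Markers of B cells were few. Of 16 listed genes 14 had rows and 11 were tested in mRNA libraries. Cd72, a B cell surface receptor, was the 1 called, against 1.89% of all genes called lower. It measured 2.14 and 2.02 CPM in Mut-labelled and 32.3 and 33.5 CPM in WT libraries (log2 fold change -3.98, edgeR adjusted p = 0.0033). The summed level of the 14 was 26.99 and 32.0 CPM in Mut-labelled and 69.9 and 113 CPM in WT libraries. Without Cd74 (the invariant chain of antigen presentation) and Cd72, the markers with the highest mean CPM, it was 14.3 and 9.84 CPM in Mut-labelled and 9.30 and 16.4 CPM in WT libraries, and the groups overlapped. The median log2 fold change of the 11 tested was -0.17. Both Mut-labelled libraries were below both WT libraries for 2 of the 11, Cd74 and Cd72, against 23.1% of all genes. They were above both WT libraries for 2 others, against 21.4% of all genes. These were Pax5, a transcription factor of the B lineage, and Bank1, a B cell adaptor protein, neither of them called (edgeR adjusted p = 0.264 and 0.745). Ms4a1 (CD20), a defining gene of mature B cells, had 0 counts in both Mut-labelled libraries and 5 and 0 counts in WT mRNA libraries. Cd72 separated the groups as Ighm did, and the part of B cells in the Ighm difference was not tested.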

How the data were processed

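The authors deposited 1 table of raw counts, with whole numbers for each gene and library. The submitters' processing notes name mm9 as build, and TopHat, featureCounts and edgeR as tools, without versions, roles or order. The annotation, multiply mapped reads and strand setting behind the counts are unknown from the sources used here. GENCODE M21 names matched 32919 of 37991 gene rows, and since its build differs from mm9 no coordinates are given. Library totals left out ERCC and rRNA rows.

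The 2 labels were compared separately in mRNA and total RNA libraries with edgeR 4.0.16 (R 4.3.3): TMM scaling, filterByExpr, two-sided quasi-likelihood test, Benjamini-Hochberg adjustment over every gene tested, calls at an adjusted p under 0.05. The fit was also run on simulated counts with known changes in well-counted genes only. That run does not bear on V rows with few counts in a group. Fold changes are Mut-labelled over WT unless stated. Alternatives were RLE and ERCC scaling, no filter, DESeq2 1.42.0, a replicate block and leaving out each library; V counts per length, V rows shared without WT replicate 2, and B cell markers without the 2 highest, were added after seeing the data. Named rows are Ighm, Igkc, Jchain, the 10 Ighv, 10 Igkv and 3 Iglv rows with the highest mean CPM, called rows, and the 3 leading V rows of each library. The genes and lists were chosen with earlier results of these data known.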

Additional observations from a re-analysis of the deposited data

How the results depend on the processing

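The 11 rows called in mRNA libraries kept a log2 fold change below 0 with any 1 library left out. All of them but Ighm, Ighv6-6 and Iglv3 had under 10 counts in both Mut-labelled libraries. Those rows passed the filter through the WT libraries, so neither their calls nor this direction is support by itself. Ighv3-8 was lost under RLE scaling (edgeR adjusted p = 0.0523), Ighm under ERCC scaling (0.114) and Igkv12-98 when WT replicate 2 was left out (0.0543). Leaving out Mut-labelled replicate 2 lost Ighv3-8 (edgeR adjusted p = 0.0508), Igkv2-137 (0.062) and Igkv5-39 (0.0508). The cause was not tested. The number of immunoglobulin rows called in mRNA libraries was 26 under ERCC scaling, 20 by DESeq2, 36 with the replicate block (35 lower, 1 higher) and 15 to 41 with a library left out: 41 lacking WT replicate 1, 17 lacking WT replicate 2 (15 lower, 2 higher), 17 lacking Mut-labelled replicate 1 (16 lower, 1 higher) and 15 lacking Mut-labelled replicate 2. In total RNA libraries it was 3 under ERCC scaling, 25 with no filter, 3 with the block and 5 to 24 with a library left out, against 1 as reported; 4 of the 5 lacking WT replicate 2 and 2 of the 18 lacking Mut-labelled replicate 1 were higher, the others lower.

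Over all genes, ERCC scaling called 170 in mRNA libraries (16 higher, 154 lower, against 300 higher and 324 lower as reported). DESeq2 called 1615 and the replicate block 2870. Each of these fits tested 56 immunoglobulin rows, of which 26, 20 and 36 were called. With a library left out, 56 to 72 rows were tested in mRNA and 12 to 37 in total RNA libraries. Those fits leave a single library in a group and test differing numbers of rows, so their counts of calls cannot be compared. In total RNA libraries 446 genes were called as reported. The count there was 373 under ERCC scaling, 724 with no filter, 203 by DESeq2 and 870 with the block. The immunoglobulin rows tested numbered 67 with no filter and 10 in the other fits just named. ERCC scaling moved the median log2 fold change of all genes to -0.38 in mRNA and -1.10 in total RNA libraries. Same-numbered libraries deviated together (correlation across genes 0.323 in mRNA and 0.220 in total RNA libraries), but with 2 pairs the libraries share only a number. With the replicate block Igkc and Jchain were called lower in mRNA (log2 fold change -1.71, edgeR adjusted p = 2.66e-05 for Igkc; -1.63, 2.56e-06 for Jchain) and in total RNA libraries (-1.47, 1.35e-33 for Igkc; -1.49, 1.37e-19 for Jchain). ERCC scaling also called both lower in total RNA libraries.

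The summed level difference ranged from -3.32 to -0.12 in mRNA and from -3.14 to 0.24 in total RNA libraries with a library left out. V rows with at least 1 count numbered 24 and 43 in Mut-labelled and 49 and 74 in WT mRNA libraries. In total RNA libraries they numbered 14 and 29 in Mut-labelled and 37 and 61 in WT libraries. Without its leading row the effective number of Mut-labelled replicate 1 was 8.14 (mRNA) and 8.89 (total RNA).

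Log2 fold changes of rows that were not called changed sign as follows. ERCC scaling gave -0.0047 for Ighv7-1 in mRNA libraries, and in total RNA libraries -0.69 for Ighv3-6, -1.25 for Igkv15-103, -0.79 for Igkv4-91 and -1.03 for Iglv1. The replicate block gave 1.07 for Igkv11-106 and -0.24 for Iglv1 in mRNA libraries and -0.055 for Igkv15-103 in total RNA libraries, where DESeq2 gave -0.068. With a library left out the ranges crossed 0 in mRNA libraries for Ighv3-5 (-11.57 to 1.47), Ighv3-6 (-2.53 to 3.47), Ighv6-3 (-1.44 to 1.56), Ighv7-1 (-11.83 to 12.13), Ighv8-12 (-8.88 to 0.090), Igkc (-3.78 to 0.50), Igkv11-106 (-1.65 to 5.99), Igkv15-103 (-4.37 to 2.91), Igkv4-91 (-0.78 to 13.65), Igkv6-32 (-10.17 to 7.54), Igkv8-21 (-11.22 to 0.78), Iglv1 (-4.95 to 3.83), Iglv2 (-3.18 to 0.026) and Jchain (-4.02 to 0.86), and in total RNA libraries for Ighv3-6 (-4.84 to 2.25), Ighv6-3 (-2.21 to 1.798), Ighv7-1 (-6.16 to 2.996), Igkc (-3.53 to 0.94), Igkv11-106 (-1.97 to 2.495), Igkv15-103 (-2.58 to 2.75), Igkv4-91 (-1.02 to 7.41), Iglv1 (-2.96 to 2.68) and Jchain (-3.57 to 1.15). The cause was not tested.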

Other observations

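Genes of the machinery that assembles antibody genes showed no shared direction. Of 16 listed genes of the pre-B receptor and of V(D)J joining, 15 were tested in mRNA libraries and none was called by edgeR, with a median log2 fold change of 0.01. At an unadjusted edgeR p under 0.05, 2 were higher, against 7.27% of all genes, and 2 lower, against 8.38%. DESeq2 called 1 lower. Rag1, a subunit of the V(D)J recombinase, measured 4.63 and 3.36 CPM in Mut-labelled libraries, against 2.24 and 1.36 CPM in WT libraries (log2 fold change 1.15, edgeR adjusted p = 0.254). Both Mut-labelled libraries thus lay above both WT libraries, as they did for 21.4% of all genes. Igll1, a part of the surrogate light chain of pre-B cells, had 43 and 14 counts in Mut-labelled and 69 and 8 counts in WT mRNA libraries.

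T cell receptor V genes, the other family joined by V(D)J recombination, were nearly silent. Their 59 rows summed to 6.17 and 3.53 CPM in Mut-labelled mRNA libraries, against 4.35 and 2.64 CPM in WT libraries, and 3 of the 59 passed the filter on low counts. The immunoglobulin V rows summed to 112 and 892 CPM in the same Mut-labelled libraries and to 224 and 2585 CPM in WT libraries. The order of the libraries also differed, since T cell receptor V rows were highest in Mut-labelled replicate 1 and immunoglobulin V rows in WT replicate 2.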
